A study of Mus musculus with 18 samples.

Results

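The comparison described here sets CD103+ dendritic cells (DCs) of the intestinal lymph nodes against CD11b+ DCs of the same nodes, over every gene that passed a filter on low counts. It rests on 6 of the 18 RNA-seq libraries of the series, chosen by their labels alone, with 3 libraries of each subset. Both groups came from C57BL/6J mice with the genotype CD11a KO, so that the knockout is shared by the groups and no wild-type library was analysed here. CD11a, encoded by Itgal, forms the integrin LFA-1 together with CD18. The other 12 libraries hold DCs positive for both markers from the nodes and the same 3 subsets from the small intestinal lamina propria. The labels give no age, sex or number of mice for a library, and do not say whether the replicates came from separate animals. Sex-linked genes, described below, set CD11b+ replicate 3 apart from the other libraries compared. The p-values measure only the spread between libraries of the same group, estimated over all 18 libraries. This spread may be technical. The sort gate given in the methods is CD45+, CD64-, MHC class II high and CD11c+, but it is given for DCs of the lamina propria and of lymph, and the sources used here do not state the gate used for the nodes.

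DCs carry antigen from the intestine to the draining nodes, where they present it to T cells. Conventional DCs fall into cDC1, which depend on the transcription factors IRF8 and BATF3 and are known for presenting antigen on MHC class I, and cDC2, which express SIRP alpha, rely more on IRF4 and are known for presenting antigen on MHC class II. A node holds DCs that live there and DCs that have arrived from the tissue, and the arrivals are known for CCR7, the chemokine receptor that leads them to the node. Among intestinal DCs, CD103 (integrin alpha E, Itgae) marks cDC1 and a part of the cDC2, and CD11b (integrin alpha M, Itgam) marks cDC2 and also macrophages.

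Between 25457164 and 28114818 reads were counted on genes in each of the 6 libraries, and the 20 most abundant genes held 14.2% to 18.6% of them. Levels are given as CPM, the count of a gene relative to the library's total after TMM scaling, which levels out the bulk of the genes. Itgal, the gene of the knockout, was counted at 12.7, 6.45 and 6.84 CPM in the CD103+ libraries and 21.0, 18.1 and 23.01 CPM in the CD11b+ libraries and was lower in CD103+ DCs (log2 fold change -1.26 ± 0.23 (SE), adjusted p = 1.7e-04, edgeR). Reads on Itgal were thus present in every library, and whether the deleted part of the gene is among them cannot be read from counts per gene. CD11b+ replicate 3 stood apart by sex-linked genes: Ddx3y, on the Y chromosome, reached 58.0 CPM there and at most 0.351 CPM in the other 5 libraries, while Xist, transcribed from the inactive X chromosome, was at 15.4 CPM there and at 37.0 to 89.1 CPM in the others. CD11b+ replicate 1 held more of the mast cell genes than its partners, with Cma1 (mast cell chymase) at 46.5, 2.57 and 5.00 CPM in the CD11b+ libraries. Counts per group of genes were therefore repeated without each of these libraries. Scaling also mattered, since the TMM factors were 0.853 to 0.877 in the CD103+ libraries and 1.12 to 1.21 in the CD11b+ libraries, and total counts in place of TMM moved the median log2 fold change of all tested genes by -0.43.

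Of 17074 genes tested, 4420 (25.9%) were changed, of which 1750 (10.2%) were higher and 2670 (15.6%) lower in CD103+ DCs. The counts of list members called under TMM, given below, are to be read against these shares. Calls required an adjusted p under 0.01 (edgeR's quasi-likelihood test, Benjamini-Hochberg) together with a fold change over 2. Higher genes made up 39.6% of the calls under TMM and 19.5% under total counts, where 1020 genes were higher and 4223 lower. Counts of list members under total counts are to be read against these numbers. The 3690 genes called under both scalings had the same direction in both, and 0 genes turned. Without CD11b+ replicate 3 there were 1588 higher and 2553 lower genes, and without CD11b+ replicate 1 there were 1496 and 2534. Among the changed genes, 267 were over 8-fold higher and 794 over 8-fold lower. The libraries of the 2 subsets did not overlap for 4404 of the 4420 genes and for 62% of all genes tested. In the plot of mean levels the larger distances from the diagonal lie on the CD11b+ side.

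**Figure D1:**
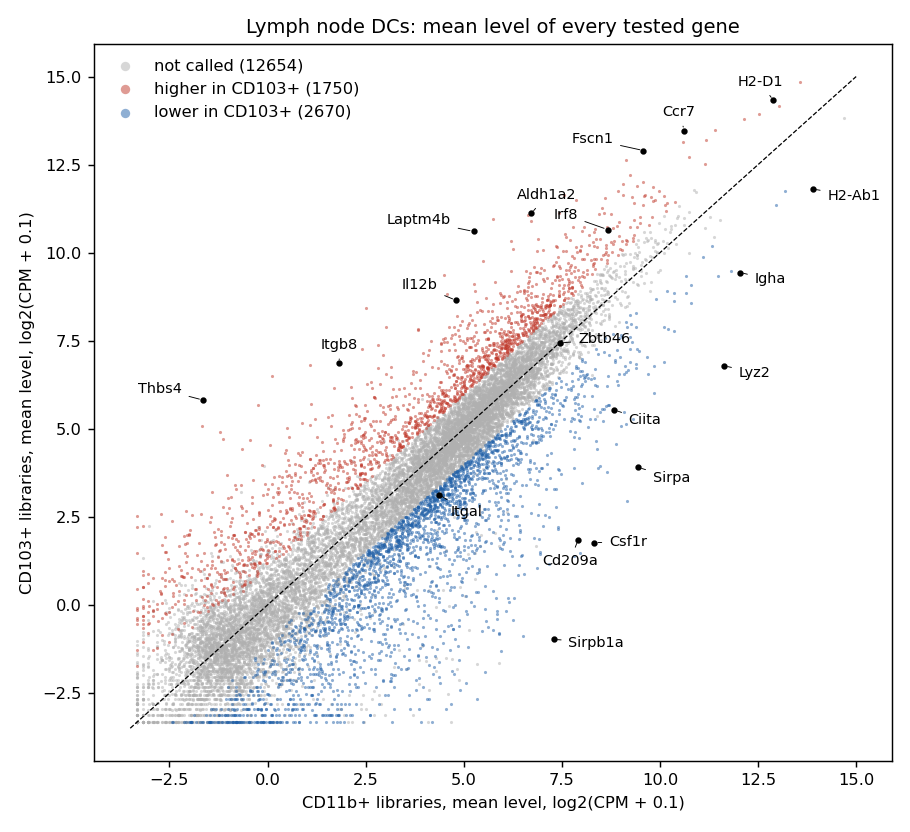
Mean level of each of the 17074 tested genes in the 3 CD11b+ libraries (horizontal) and the 3 CD103+ libraries (vertical), both as log2(CPM + 0.1), with 1750 genes called higher in red, 2670 called lower in blue and the dashed line marking equal levels. Thbs4, Itgb8 and Aldh1a2 lie far above the line, Sirpb1a, Cd209a, Csf1r and Sirpa far below it, and Zbtb46 on it.

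The sort markers separated the groups as the labels name them. Itgae (chr11:73090583-73147446 on GRCm38) was at 40.0, 39.1 and 27.0 CPM in the CD103+ libraries and 5.57, 6.66 and 5.70 CPM in the CD11b+ libraries (log2 fold change 2.57 ± 0.33 (SE), adjusted p = 4.6e-06). Itgam (chr7:128062640-128118491) was at 0.166, 0.886 and 0.263 CPM in the CD103+ libraries and 25.7, 13.8 and 22.98 CPM in the CD11b+ libraries (log2 fold change -5.55 ± 0.38 (SE), adjusted p = 2.9e-09). Each CD103+ library was thus above each CD11b+ library for CD103 and below each for CD11b. Itgax, which encodes CD11c, and Ptprc, which encodes CD45, were counted in all 6 libraries and were lower in CD103+ DCs (3.10-fold, 86.5 ± 4.8 against 268 ± 36.9 CPM, and 2.42-fold, 480.0 ± 62.1 against 1161 ± 156 CPM). Fcgr1, which encodes the macrophage receptor CD64, had 0 counts in the 3 CD103+ libraries and 6.00, 4.09 and 5.76 CPM in the CD11b+ libraries, at least 125-fold higher there with the floor set at 3 counts over the group. Zbtb46, a transcription factor shared by conventional DCs, was at 177, 170.4 and 172 CPM in the CD103+ libraries and 168, 161 and 196 CPM in the CD11b+ libraries and was not called (-0.02, adjusted p = 0.88). The groups overlapped for Zbtb46, and also for Spi1, which encodes PU.1 (612 ± 33.7 against 591 ± 82.5 CPM).

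Of the 19 genes shared by DCs, 2 were higher, 13 lower and 4 not called, where 10.2% of all tested genes were higher and 15.6% lower. The median log2 fold change was -1.80 against -0.13 over all tested genes. Flt3, the receptor for the growth factor of DCs, was at 1058, 1041 and 996 CPM in the CD103+ libraries and 427, 425 and 459 CPM in the CD11b+ libraries (log2 fold change 1.24 ± 0.08 (SE), adjusted p = 1.6e-09). The groups were well apart, although the fold of Flt3 was under the limit with total counts (log2 0.81). Id2, an inhibitor of other helix-loop-helix factors that DCs need, was also higher (3.51-fold, 3087 ± 483 against 881 ± 182 CPM). Kit, the receptor for stem cell factor, was at 46.7, 38.1 and 27.9 CPM in the CD103+ libraries and 259, 228 and 259 CPM in the CD11b+ libraries and was 6.61-fold lower. Bcl11a, Ikzf1 and Tcf4, transcription factors of DC and lymphoid development, were lower as well (9.01-fold, 3.47-fold and 3.49-fold). The other 9 genes that were lower, Ciita and 8 genes of MHC class II, are described with antigen presentation.

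The cDC1 genes were not uniformly higher in CD103+ DCs. Of 25 tested, 9 were higher and 4 lower, where 10.2% of all tested genes were higher and 15.6% lower. The lower count was thus near the share over all genes. The median log2 fold change was 0.11 under TMM and -0.32 under total counts, where 7 were higher and 6 lower. Irf8, which cDC1 require, was at 1635, 1656 and 1554 CPM in the CD103+ libraries and 381, 416 and 419 CPM in the CD11b+ libraries (log2 fold change 1.99 ± 0.09 (SE), adjusted p = 3.3e-11). Xcr1, the receptor for the chemokine XCL1, was at 95.2, 103 and 94.9 CPM in the CD103+ libraries and 44.4, 45.4 and 49.0 CPM in the CD11b+ libraries (log2 fold change 1.08 ± 0.14 (SE), adjusted p = 7.4e-06). The CD11b+ libraries were thus lower for both but were not without them, and the call for Xcr1 was lost under total counts (log2 0.65). Clec9a, a receptor for dead cells, was at 34.0, 38.8 and 47.7 CPM in the CD103+ libraries and 10.7, 15.0 and 10.8 CPM in the CD11b+ libraries, which is 3.30-fold higher. Cadm1, an adhesion molecule of cDC1, and Ly75, which encodes the endocytic receptor DEC-205, were 4.20-fold and 4.43-fold higher, as were Cd36, a scavenger receptor (5.65-fold), Cd8a (2.997-fold) and Plpp1, a lipid phosphatase (3.50-fold). Itgb5 completes the 9 (2.22-fold), but its call was lost when a library was left out and also under total counts.

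In the opposite direction went Tlr3, the receptor for double-stranded RNA, at 9.08, 10.3 and 6.58 CPM in the CD103+ libraries and 21.8, 20.2 and 24.6 CPM in the CD11b+ libraries (log2 fold change -1.36 ± 0.14 (SE), adjusted p = 4.5e-07). Wdfy4, which cDC1 need for cross-presentation, was at 40.2, 27.2 and 29.4 CPM in the CD103+ libraries and 135, 117 and 123 CPM in the CD11b+ libraries (log2 fold change -1.95 ± 0.15 (SE), adjusted p = 1.0e-08). For both genes the 3 CD103+ libraries were below the 3 CD11b+ libraries. Sept3, a septin, was 5.76-fold lower, and Zbtb16 was lower at a level near the filter (0.389 ± 0.435 against 3.84 ± 1.21 CPM), a call that was lost when a library was left out. Batf3 was higher by less than the fold limit (1.46-fold, adjusted p = 1.8e-04). Naaa and Rab7b, also known from cDC1, had values below those of CD11b+ DCs without passing the fold limit (log2 -0.81 and -0.59), and were called lower under total counts. Snx22 and Ifi205 were not called (log2 0.46 and -0.53). For Gcsam, Btla, Ppt1, Tlr11, Cd24a, Fcrla and Nfil3 the libraries of the subsets overlapped. Since 9 of the 25 cDC1 genes passed the threshold in favour of CD103+ DCs, the group is called by its sort marker and not cDC1.

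The cDC2 genes were lower in CD103+ DCs almost throughout. Of 26 tested, 20 were lower and 1 higher, with a median log2 fold change of -4.01, and 19 or 20 were lower whichever library was left out. Sirpa, which encodes the inhibitory receptor SIRP alpha, was at 15.1, 14.2 and 15.3 CPM in the CD103+ libraries and 742, 515 and 832 CPM in the CD11b+ libraries (log2 fold change -5.55 ± 0.17 (SE), adjusted p = 1.1e-12). Csf1r, the receptor for CSF1, was at 4.85, 2.57 and 2.498 CPM in the CD103+ libraries and 352, 210.5 and 404 CPM in the CD11b+ libraries (log2 fold change -6.60 ± 0.33 (SE), adjusted p = 7.5e-11). Cd209a, a C-type lectin related to DC-SIGN, was at 3.44, 5.10 and 1.93 CPM in the CD103+ libraries and 320.0, 162 and 241 CPM in the CD11b+ libraries (log2 fold change -6.10 ± 0.37 (SE), adjusted p = 7.1e-10). CD11b+ replicate 2 had the lowest value of its group for all 3, and the CD103+ libraries stayed far below it. Cx3cr1, the fractalkine receptor, was 86.8-fold lower, and the lectins Clec10a, Mgl2, Clec4a2, Clec4a4 and Clec4n were 29.8-fold to 100.3-fold lower. Cd300a, Cfp, which encodes properdin, and Ffar2, a receptor for short-chain fatty acids, were 89.1-fold, 29.7-fold and 59.0-fold lower.

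Among the regulators of cDC2, Zeb2 was 13.4-fold lower and Klf4 4.61-fold lower (5.25 ± 0.187 against 70.4 ± 9.83 CPM and 11.5 ± 3.97 against 52.9 ± 3.72 CPM). Irf4, in contrast, was at 32.0, 23.03 and 24.9 CPM in the CD103+ libraries and 39.9, 36.2 and 46.1 CPM in the CD11b+ libraries, a difference under the fold limit (-0.61, adjusted p = 0.0035) that passed it under total counts (log2 -1.04). Rbpj, the DNA-binding partner of Notch, was higher in CD103+ DCs at 178, 168 and 172 CPM in the CD103+ libraries and 56.4, 51.1 and 54.7 CPM in the CD11b+ libraries (log2 fold change 1.67 ± 0.10 (SE), adjusted p = 5.1e-10). Ltb, which encodes lymphotoxin beta, and Cd4 were 5.81-fold and 8.23-fold lower, and S100a4, S100a6, Cd14 and Notch2 were also lower, the last by 2.01-fold and without its call when a library was left out. Tmem176a, Tmem176b, Csf2ra and Clec12a were not called (log2 -0.51, -0.75, 0.64 and -0.68). Markers of macrophages and monocytes moved the same way: 9 of 13 were lower in CD103+ DCs and 0 higher, and their summed level was 229 to 236 CPM in the CD103+ libraries and 3240 to 5027 CPM in the CD11b+ libraries. Their part in the cDC2 result was not tested. In sorted bulk samples, fewer cells of a type and less RNA per cell cannot be told apart.

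**Figure D2:**
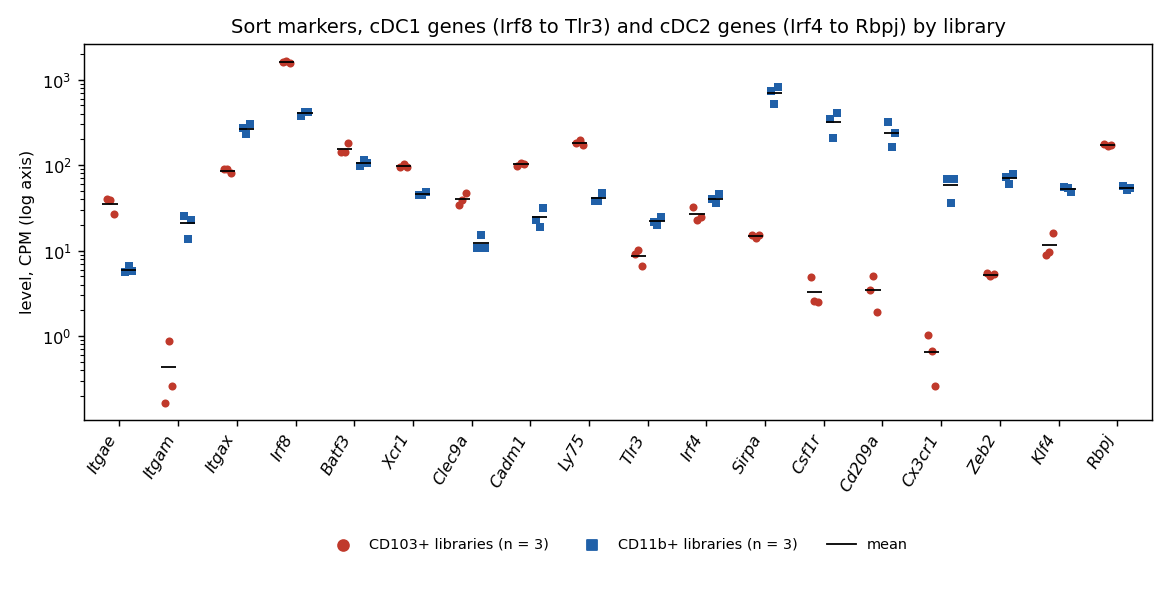
Level of sort markers, cDC1 genes and cDC2 genes in each library, in CPM on a log axis, with circles for the 3 CD103+ libraries, squares for the 3 CD11b+ libraries and bars for the means. Irf8 to Ly75 sit higher in CD103+ DCs and Tlr3 lower, while Sirpa, Csf1r, Cd209a and Cx3cr1 sit far lower and Irf4 nearly level.

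MHC class I and class II genes differed in opposite directions. All 8 class II chain and chaperone genes (H2-Aa, H2-Ab1, H2-Eb1, H2-DMa, H2-DMb1, H2-DMb2, H2-Oa and H2-Ob) were lower in CD103+ DCs, whereas 13 of the 19 genes of class I presentation were higher and 0 lower, with a median log2 fold change of 1.58. Promoters of genes from both sets are shown because the members of each set differed together. They were read from RefSeq for GRCm38.p6 as the 250 bases before the annotated start, written 5′ to 3′ on the strand of the gene, in lower case with no motif marked. The class II promoters are those of H2-Aa (chr17:34287824-34288073, minus strand) and H2-Eb1 (chr17:34305617-34305866, plus strand), and the class I promoters those of B2m (chr2:122147437-122147686, plus strand) and Tap1 (chr17:34187306-34187555, plus strand).
H2-Aa: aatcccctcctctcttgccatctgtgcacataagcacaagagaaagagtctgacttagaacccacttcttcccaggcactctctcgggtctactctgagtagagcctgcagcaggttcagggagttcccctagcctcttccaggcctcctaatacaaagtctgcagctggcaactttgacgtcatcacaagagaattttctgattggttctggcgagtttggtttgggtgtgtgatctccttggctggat
H2-Eb1: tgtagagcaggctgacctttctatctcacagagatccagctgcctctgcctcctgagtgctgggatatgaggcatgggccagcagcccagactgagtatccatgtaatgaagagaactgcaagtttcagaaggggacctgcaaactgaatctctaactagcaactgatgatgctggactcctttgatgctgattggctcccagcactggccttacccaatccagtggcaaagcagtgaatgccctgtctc
B2m: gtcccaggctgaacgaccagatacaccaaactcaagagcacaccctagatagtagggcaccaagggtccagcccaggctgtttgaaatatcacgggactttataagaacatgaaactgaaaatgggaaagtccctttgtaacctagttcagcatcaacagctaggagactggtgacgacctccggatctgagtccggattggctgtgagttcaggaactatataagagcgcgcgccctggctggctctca
Tap1: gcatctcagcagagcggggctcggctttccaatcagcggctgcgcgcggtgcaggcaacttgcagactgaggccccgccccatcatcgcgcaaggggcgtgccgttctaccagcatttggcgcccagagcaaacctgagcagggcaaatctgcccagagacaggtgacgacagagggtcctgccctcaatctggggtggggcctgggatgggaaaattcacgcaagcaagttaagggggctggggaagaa

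Among class II genes, H2-Ab1, the beta chain of I-A (chr17:34257689-34269419), was at 3622, 3517 and 3607 CPM in the CD103+ libraries and 16796, 12915 and 16036 CPM in the CD11b+ libraries (log2 fold change -2.09 ± 0.10 (SE), adjusted p = 6.3e-11). Its partner H2-Aa was at 3309.6, 3383 and 3595 CPM in the CD103+ libraries and 10032, 8054 and 9911 CPM in the CD11b+ libraries (log2 fold change -1.44 ± 0.09 (SE), adjusted p = 1.4e-09). The CD103+ libraries lay within a narrow range for both and below every CD11b+ library. H2-Eb1, the beta chain of I-E, was 3.06-fold lower. H2-DMa, H2-DMb1 and H2-DMb2, which load peptide, were 5.10-fold, 5.44-fold and 8.76-fold lower, and H2-Oa and H2-Ob, which restrain that loading, 6.20-fold and 5.63-fold lower. Ciita, the coactivator that class II transcription depends on, was at 61.2, 39.3 and 38.4 CPM in the CD103+ libraries and 503, 366 and 498 CPM in the CD11b+ libraries (log2 fold change -3.30 ± 0.19 (SE), adjusted p = 3.1e-10). Cd74, the invariant chain, was lower by less than the fold limit (14377 ± 325 against 26494 ± 3919.8 CPM, -0.88, adjusted p = 4.2e-06) and passed it under total counts (log2 -1.31). Markers of B cells, which also express class II, had a summed level of 284 to 313 CPM in CD103+ and 565 to 1055 CPM in CD11b+ libraries, and their part was not tested.

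Of the class I genes, B2m, the light chain, was at 14821, 14482 and 18022 CPM in the CD103+ libraries and 5933, 5346 and 6324 CPM in the CD11b+ libraries (log2 fold change 1.43 ± 0.12 (SE), adjusted p = 2.5e-08). H2-K1, a heavy chain, was at 13329.5, 13655 and 15298 CPM in the CD103+ libraries and 3974, 4844 and 4725 CPM in the CD11b+ libraries (log2 fold change 1.64 ± 0.11 (SE), adjusted p = 3.3e-09). All CD103+ libraries were above all CD11b+ libraries for these and for the other 17 members, where 62% of all tested genes did not overlap. B2m did not pass the fold limit under total counts, which left 12 of the 19 called. Tap1 and Tap2, the peptide transporter, were 3.77-fold and 3.36-fold higher, and Tapbp (tapasin) and Tapbpl, which edit the bound peptides, 4.14-fold and 5.80-fold. The proteasome activator subunits Psme1 and Psme2 were 3.58-fold and 4.88-fold higher and the immunoproteasome subunits Psmb8 and Psmb9 2.94-fold and 2.98-fold. The genes Calr, Canx, Pdia3, Erap1, Psmb10 and Nlrc5, the last the coactivator of class I transcription, were not called (log2 0.43 to 0.88).

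Genes of DC maturation were higher in CD103+ DCs for 20 of 25 tested, with 0 lower and a median log2 fold change of 1.79. Ccr7 (chr11:99144196-99155077) was at 10129, 11902 and 11978 CPM in the CD103+ libraries and 1024, 1811 and 1879.7 CPM in the CD11b+ libraries (log2 fold change 2.85 ± 0.29 (SE), adjusted p = 3.5e-07). Fscn1, the actin-bundling protein of mature DCs, was at 8465, 6949 and 7514 CPM in the CD103+ libraries and 686, 819 and 789.5 CPM in the CD11b+ libraries (log2 fold change 3.32 ± 0.21 (SE), adjusted p = 1.2e-09). The lowest CD103+ library was above the highest CD11b+ library by a wide margin for each. Cd40, which receives help from T cells, was 4.12-fold higher (922 ± 80.0 against 224 ± 19.9 CPM), and Pdcd1lg2, which encodes PD-L2, 7.504-fold higher. Cacnb3, Il15ra, Anxa3, Eno3, Samsn1, Marcksl1, Socs2, Stat4 and Cd200 were 3.10-fold to 6.67-fold higher, and Arc 12.4-fold. Relb and Nfkb2, the factors of the noncanonical NF-kB pathway, were 2.32-fold and 2.53-fold higher.

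The other 5 maturation genes were not called. Cd86, a ligand of CD28, was at 154, 139.5 and 151 CPM in the CD103+ libraries and 139, 111 and 142 CPM in the CD11b+ libraries, with overlapping groups (0.18, adjusted p = 0.27). Cd80 had lower values in CD103+ DCs under the fold limit (22.9 ± 1.81 against 37.3 ± 6.32 CPM) and was called lower under total counts. Cd83 overlapped between the groups, and Cd274, which encodes PD-L1, and Traf1 were higher by less than the fold limit (log2 0.71 and 0.97). Under total counts 16 of the 25 genes were still higher, since Relb, Nfkb2, Birc2 and Birc3 did not pass the fold limit, and without CD11b+ replicate 1 there were 19.

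Of 23 genes of retinoic acid and TGF-beta tested, 3 were higher, near the 10.2% of all tested genes, and 7 lower, against 15.6% of all. Aldh1a2, the retinaldehyde dehydrogenase by which intestinal DCs make retinoic acid, was at 2376, 2319 and 1955 CPM in the CD103+ libraries and 65.7, 119.7 and 131 CPM in the CD11b+ libraries (log2 fold change 4.39 ± 0.22 (SE), adjusted p = 7.1e-11). Itgb8, which with the alpha V chain releases active TGF-beta, was at 105, 119.8 and 124 CPM in the CD103+ libraries and 3.78, 3.54 and 2.997 CPM in the CD11b+ libraries (log2 fold change 5.08 ± 0.33 (SE), adjusted p = 1.8e-09). The groups were far apart for both, 21.0-fold and 33.8-fold. Cyp26b1, which degrades retinoic acid, was higher at a level close to the detection limit (0.754 ± 0.557 against 0.0629 ± 0.0546 CPM). The receptors for retinoic acid were lower, with Rarg 13.4-fold, Rxra 6.09-fold and Rara 2.42-fold lower. On the TGF-beta side Smad7, an inhibitor of the signal, was 2.58-fold lower, Tgfbi 28.1-fold lower, and Tgfbr1, Smad3 and Skil were not called.

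**Figure D3:**
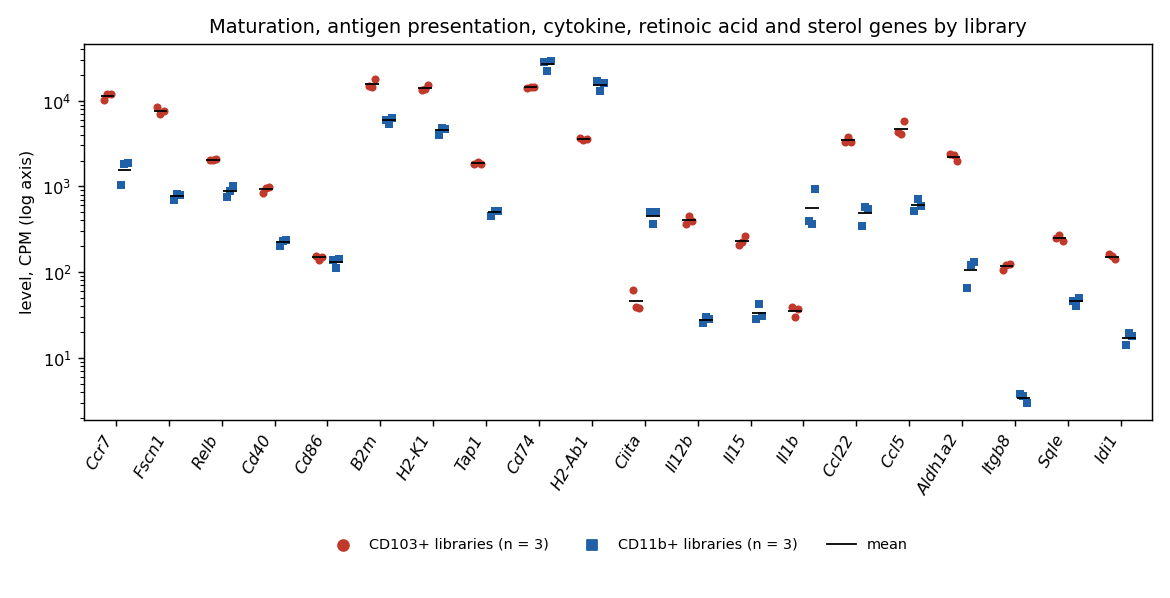
Level of genes of maturation, antigen presentation, cytokines, chemokines, retinoic acid and sterol synthesis in each library, in CPM on a log axis, with circles for the 3 CD103+ libraries, squares for the 3 CD11b+ libraries and bars for the means. Ccr7, Fscn1, Il12b, Ccl22, Ccl5, Aldh1a2, Itgb8 and Idi1 are higher in all CD103+ libraries, H2-Ab1, Ciita and Il1b lower, and Cd86 overlaps.

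Of 19 chemokine genes, 4 were higher and 9 lower, against 10.2% and 15.6% of all tested genes. The 4 that were higher in CD103+ DCs were Ccl22 and Ccl17, ligands of CCR4, Ccl5 and Cxcl16, the ligand of CXCR6. Ccl22 was at 3324, 3751 and 3285 CPM in the CD103+ libraries and 344, 569.5 and 543 CPM in the CD11b+ libraries (log2 fold change 2.83 ± 0.27 (SE), adjusted p = 2.0e-07). Ccl5 was at 4265, 4119 and 5737 CPM in the CD103+ libraries and 512, 719.6 and 585 CPM in the CD11b+ libraries (log2 fold change 2.96 ± 0.27 (SE), adjusted p = 9.0e-08), and Ccl17 and Cxcl16 were 3.54-fold and 5.96-fold higher. No CD11b+ library reached the CD103+ libraries for any of the 4. Of the 9 that were lower, Ccl3, which attracts monocytes, was at 3.48, 2.40 and 4.69 CPM in the CD103+ libraries and 83.6, 104 and 175 CPM in the CD11b+ libraries (log2 fold change -5.10 ± 0.43 (SE), adjusted p = 3.4e-08). Ccl4, its close relative, was 16.1-fold lower, and Ccl9, Ccl6 and the interferon-induced Cxcl10 were 5.66-fold, 2.72-fold and 4.87-fold lower. Ccl2, Ccl8 and Ccl24 were low in both groups, and their calls were lost when a library was left out.

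Chemokine receptors other than Ccr7 were lower or not called, with 11 of 15 lower, 0 higher and a median log2 fold change of -2.36. Ccr2, the receptor of monocytes and their progeny, was at 6.18, 7.25 and 3.73 CPM in the CD103+ libraries and 152, 102 and 149 CPM in the CD11b+ libraries (log2 fold change -4.55 ± 0.45 (SE), adjusted p = 2.8e-07). Gpr183, the oxysterol receptor that places DCs at the edge of follicles, was at 48.3, 50.8 and 42.0 CPM in the CD103+ libraries and 291, 382 and 421 CPM in the CD11b+ libraries (log2 fold change -2.95 ± 0.14 (SE), adjusted p = 3.7e-11). CD103+ replicate 3 had the lowest value for both. Ccr6, the receptor for CCL20, was 7.76-fold lower, Cxcr6 13.8-fold lower, and Ccr1, Ccr10, Cxcr3, Cxcr4 and Ccrl2 2.35-fold to 7.40-fold lower. Cmklr1, the chemerin receptor, had 0 counts in the CD103+ libraries and was at least 22.1-fold higher in CD11b+ DCs. Ccr9, the receptor for the intestinal chemokine CCL25, overlapped (26.2 ± 5.14 against 22.1 ± 4.11 CPM). The count of 11 was the same whichever library was left out.

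Among 20 cytokine genes, 5 were higher and 11 lower, against 10.2% and 15.6% of all tested genes. Il12b, the p40 chain of IL-12 and IL-23, was at 362, 453 and 389.8 CPM in the CD103+ libraries and 25.3, 30.0 and 28.04 CPM in the CD11b+ libraries (log2 fold change 3.85 ± 0.32 (SE), adjusted p = 3.4e-08). Il15, which sustains NK cells and memory CD8 T cells, was at 206, 223 and 265 CPM in the CD103+ libraries and 28.1, 41.9 and 30.6 CPM in the CD11b+ libraries (log2 fold change 2.79 ± 0.14 (SE), adjusted p = 1.2e-10). Il27 and Ebi3, the chains of IL-27, were 7.11-fold and 3.02-fold higher, and Tgfb2 was 15.7-fold higher (19.9 ± 2.44 against 1.27 ± 0.282 CPM). Il12a, the partner that makes p40 into IL-12, was low in both groups and not called (0.540 ± 0.319 against 0.925 ± 0.499 CPM). Il1b was at 38.8, 29.7 and 36.6 CPM in the CD103+ libraries and 392.3, 363 and 932 CPM in the CD11b+ libraries (log2 fold change -4.01 ± 0.36 (SE), adjusted p = 8.8e-08). Its level in CD11b+ replicate 3 was more than 2 times that of the other CD11b+ libraries, and all 3 stayed above the CD103+ libraries. Il1rn, the antagonist of IL-1, Bmp2, Il18, Osm and Lif were 4.795-fold to 19.8-fold lower, and Tgfb1 and Tnf 3.35-fold and 2.06-fold lower.

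The TNF superfamily had 8 members higher and 9 lower of 21, against 10.2% and 15.6% of all tested genes. Tnfrsf4, which encodes OX40, was at 656, 698 and 807 CPM in the CD103+ libraries and 49.8, 91.9 and 79.1 CPM in the CD11b+ libraries (log2 fold change 3.29 ± 0.25 (SE), adjusted p = 1.3e-08). Fas, the death receptor, was at 318, 391 and 407 CPM in the CD103+ libraries and 47.6, 55.4 and 57.5 CPM in the CD11b+ libraries (log2 fold change 2.80 ± 0.18 (SE), adjusted p = 1.5e-09). Cd70, the ligand of CD27, and Tnfrsf9, which encodes 4-1BB, were 6.80-fold and 5.02-fold higher. Tnfsf14 (LIGHT) and Tnfrsf13b (TACI) were 17.9-fold and 8.56-fold lower. Under total counts 4 members were higher, as Tnfsf9, Tnfsf13b, Tnfrsf1b and Tnfrsf11a did not pass the fold limit, and 4 were also higher without CD11b+ replicate 1. With CD103+ replicate 3 left out 6 members were higher and 6 lower. Among regulators of T cells, 3 of 18 were higher and 8 lower, against the same shares of all tested genes. Pvr, the ligand of CD226 and TIGIT, was at 109, 70.9 and 119 CPM in the CD103+ libraries and 9.99, 13.7 and 15.4 CPM in the CD11b+ libraries (log2 fold change 2.94 ± 0.24 (SE), adjusted p = 2.4e-08). The tryptophan-degrading enzymes Ido1 and Ido2 were 4.78-fold and 7.94-fold higher at low levels, and Havcr2 (TIM-3), Cd200r1, Entpd1 (CD39) and Lgals9 (galectin-9) were 2.602-fold to 4.87-fold lower. Icosl was higher by less than the fold limit (643 ± 11.4 against 468 ± 53.7 CPM).

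Receptors for microbial patterns were lower in CD103+ DCs for 15 of 23 genes, with a median log2 fold change of -1.58, and 1 was higher. Nod1, a sensor of bacterial cell wall, was at 7.14, 6.16 and 3.95 CPM in the CD103+ libraries and 134, 94.8 and 129 CPM in the CD11b+ libraries (log2 fold change -4.37 ± 0.24 (SE), adjusted p = 2.1e-10). Tlr5, the flagellin receptor, was at 0.207, 0.717 and 0.0438 CPM in the CD103+ libraries and 11.1, 6.88 and 9.69 CPM in the CD11b+ libraries (log2 fold change -4.81 ± 0.59 (SE), adjusted p = 3.3e-06). Nlrp3, the core of an inflammasome, was at 0.622, 0.253 and 0.175 CPM in the CD103+ libraries and 18.5, 12.3 and 15.5 CPM in the CD11b+ libraries (log2 fold change -5.43 ± 0.41 (SE), adjusted p = 9.9e-09). The CD103+ libraries were below every CD11b+ library for all 3, and under 1 CPM for Tlr5 and Nlrp3. Tlr7, Tlr2 and Tlr1 were 13.2-fold, 2.76-fold and 2.85-fold lower, and Ddx58 (RIG-I) and Tmem173 (STING) 4.799-fold and 2.999-fold. Tlr8 had 1 count over the CD103+ libraries and 316 over the CD11b+ libraries, a ratio of 238 (42.4 to 9.44e+03, 95% counting interval). Clec4e (Mincle) had 0 counts in CD103+ DCs and was at least 71.6-fold higher in CD11b+ DCs. The exception was Tlr12, a receptor for profilin, at 69.2, 67.9 and 54.5 CPM in the CD103+ libraries and 15.5, 15.2 and 19.3 CPM in the CD11b+ libraries (log2 fold change 1.94 ± 0.18 (SE), adjusted p = 1.0e-07). Tlr9 and Tlr13, the sensors of bacterial DNA and RNA, and Ifih1 (MDA5) overlapped between the groups.

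Fc receptors followed the same direction, with 5 of 10 lower, against 15.6% of all tested genes, and 0 higher. Fcer1g, the shared signalling chain, was at 41.3, 36.9 and 38.6 CPM in the CD103+ libraries and 701, 573 and 643 CPM in the CD11b+ libraries (log2 fold change -4.04 ± 0.12 (SE), adjusted p = 9.5e-13). Fcgr2b, the inhibitory receptor for IgG, was at 3.48, 3.42 and 2.67 CPM in the CD103+ libraries and 82.2, 37.7 and 72.8 CPM in the CD11b+ libraries (log2 fold change -4.33 ± 0.30 (SE), adjusted p = 3.9e-09), and Fcgr3 and Fcgr4 were 37.2-fold and 12.3-fold lower. The groups were far apart for each. Of 28 interferon-stimulated genes, 4 were higher under TMM, near the 10.2% of all tested genes, and 9 lower, against 15.6% of all. Under total counts 2 were higher and 16 lower. Oasl1, which restrains the translation of IRF7, was at 215, 249 and 242 CPM in the CD103+ libraries and 22.01, 28.6 and 23.5 CPM in the CD11b+ libraries (log2 fold change 3.25 ± 0.17 (SE), adjusted p = 1.5e-10). Mx1, an antiviral GTPase, was 3.40-fold higher, whereas Rtp4 was 5.95-fold lower and Oas2, Ifit3, Ifi203, Oas1a, Ddx60, Isg20 and Oasl2 3.83-fold to 6.67-fold lower. Irf9 and Irf7, factors of the interferon response, did not pass the fold limit (log2 -0.24 and -0.74), and Irf7 was called lower under total counts.

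The list of endosomal and lysosomal proteases and inhibitors, which also holds Lamp1, was divided. Of the 17 members tested, 7 were higher and 6 lower, against 10.2% and 15.6% of all tested genes. These counts are for the whole list and not for proteases alone. A further 5 list members were under the filter. Lgmn, the asparagine endopeptidase, was at 655, 704 and 716 CPM in the CD103+ libraries and 115, 119.5 and 133 CPM in the CD11b+ libraries (log2 fold change 2.5 ± 0.09 (SE), adjusted p = 5.6e-12). Cst3, a secreted cysteine protease inhibitor, was at 9030.4, 8909 and 10376 CPM in the CD103+ libraries and 2243, 2299 and 2373 CPM in the CD11b+ libraries (log2 fold change 2.03 ± 0.12 (SE), adjusted p = 5.1e-10). For both, the groups were clearly apart. Ctsb (cathepsin B) and Lamp1 were 3.15-fold and 3.47-fold higher, and Stfa2, with 0 counts in CD11b+ DCs, at least 25.7-fold higher. Ctsa was at 73.3, 93.9 and 80.5 CPM in the CD103+ libraries and 524, 373 and 538 CPM in the CD11b+ libraries (log2 fold change -2.53 ± 0.12 (SE), adjusted p = 6.9e-11), and Napsa, Ctse and Ctsd, the aspartic proteases, were 3.11-fold, 2.44-fold and 2.08-fold lower. Ctss, which trims the invariant chain, overlapped (1222 ± 97.1 against 1369 ± 183 CPM). The median log2 fold change was 0.08 under TMM and -0.35 under total counts.

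Of 36 further transcription factors, 4 were higher, which is near the 10.2% of all tested genes, and 14 were lower, against 15.6% of all. Bcl6, a repressor that cDC1 express, was at 133, 166 and 126 CPM in the CD103+ libraries and 61.0, 48.1 and 48.0 CPM in the CD11b+ libraries (log2 fold change 1.44 ± 0.16 (SE), adjusted p = 7.4e-07), and Rela, Ahrr and Ikzf4 were 2.42-fold, 3.09-fold and 3.82-fold higher. Nfkb1, which pairs with Rela, was lower (4.40-fold). Nr4a1, induced by acute signals, was at 57.4, 81.7 and 55.7 CPM in the CD103+ libraries and 539.6, 859.5 and 1342 CPM in the CD11b+ libraries (log2 fold change -3.81 ± 0.40 (SE), adjusted p = 4.7e-07), with CD11b+ replicates that differed widely among themselves. Cebpb, Cebpa and Nr1h3, known in myeloid cells, were 10.7-fold, 4.21-fold and 16.6-fold lower. Tbx21 and Rora, which are shared with lymphoid cells, were 7.47-fold and 8.70-fold lower. Markers of NK cells and ILCs were lower for 5 of 11 genes, against 15.6% of all, with Ncr1 34.6-fold and Il18r1 11.9-fold lower. The summed level of these markers was 322 to 425 CPM in CD103+ and 515 to 871 CPM in CD11b+ libraries. Their part in the results for Tbx21 and Rora was not tested.

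Genes of motility and adhesion were higher for 3 of 30 and lower for 11, where 10.2% of all tested genes were higher and 15.6% lower, so that the higher count was near the share over all genes. Myo1g, a membrane-linked myosin, was 2.82-fold higher, Itgb1, the integrin beta 1 chain, 2.86-fold and F11r (JAM-A) 3.22-fold higher. Itgb2, the beta chain that pairs with CD11a, CD11b and CD11c, was at 126, 122 and 72.6 CPM in the CD103+ libraries and 744, 583 and 682 CPM in the CD11b+ libraries (log2 fold change -2.65 ± 0.16 (SE), adjusted p = 5.6e-10). Itgb7, the partner of CD103, was at 150.5, 164 and 78.6 CPM in the CD103+ libraries and 519, 517 and 493 CPM in the CD11b+ libraries (log2 fold change -1.96 ± 0.26 (SE), adjusted p = 7.0e-06). CD103+ replicate 3 was the lowest library for both. Thus the beta chain of CD103 was lower in the subset sorted for CD103, in which the alpha chain Itgae was higher. Rac2, Coro1a and Was, regulators of actin in leukocytes, were 3.50-fold, 2.54-fold and 3.66-fold lower, while Cdc42, Rac1 and Rhoa did not pass the fold limit (log2 0.38, 0.63 and 0.46).

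Genes of cholesterol synthesis were higher in CD103+ DCs for 17 of 20, with 0 lower and a median log2 fold change of 1.63. Sqle, which makes squalene epoxide, was at 251, 273 and 231 CPM in the CD103+ libraries and 46.0, 40.4 and 49.8 CPM in the CD11b+ libraries (log2 fold change 2.47 ± 0.13 (SE), adjusted p = 1.8e-10). Idi1, which isomerises isopentenyl diphosphate, was at 161, 154 and 140.2 CPM in the CD103+ libraries and 14.2, 19.2 and 17.98 CPM in the CD11b+ libraries (log2 fold change 3.15 ± 0.16 (SE), adjusted p = 1.0e-10). Every CD103+ library was above every CD11b+ library for these enzymes. Fdft1, which makes squalene, was 6.37-fold higher. Srebf2, the transcription factor of the pathway, and Insig1, which holds it back, did not pass the fold limit, and Dhcr7 overlapped (log2 0.72, 0.84 and 0.09). Under total counts 13 of the 20 were higher.

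Proliferation genes went the other way, with 14 of 20 lower and 0 higher under TMM, against 15.6% and 10.2% of all tested genes. Under total counts all 20 were lower, where 4223 of the 17074 genes tested were lower, against 2670 under TMM. Between 12 and 18 were lower when each library was left out in turn, and the median log2 fold change was -1.30. Mki67, a marker of cycling cells, was at 20.5, 19.3 and 19.0 CPM in the CD103+ libraries and 55.9, 41.7 and 48.8 CPM in the CD11b+ libraries (log2 fold change -1.32 ± 0.13 (SE), adjusted p = 3.5e-07). Stmn1, which destabilises microtubules, was at 27.4, 40.7 and 30.5 CPM in the CD103+ libraries and 115, 90.9 and 107 CPM in the CD11b+ libraries (log2 fold change -1.67 ± 0.18 (SE), adjusted p = 5.5e-07). The groups did not overlap, and the CD103+ libraries were not free of these transcripts. Genes induced when tissue is taken apart were lower for 9 of 20 and higher for 1, against 15.6% and 10.2% of all tested genes. The higher count was 0 without CD11b+ replicate 1 or 2 and 2 without CD11b+ replicate 3. Fos was at 581, 528 and 846 CPM in the CD103+ libraries and 2858, 2895 and 2815 CPM in the CD11b+ libraries (log2 fold change -2.13 ± 0.18 (SE), adjusted p = 3.0e-08), and Egr1 at 124, 101 and 108 CPM in the CD103+ libraries and 850.3, 1058 and 868 CPM in the CD11b+ libraries (log2 fold change -3.06 ± 0.21 (SE), adjusted p = 3.1e-09). Jun, Ier2, Btg2 and Egr2 were 3.31-fold, 6.18-fold, 5.93-fold and 8.80-fold lower, whereas Dusp1, Hspa1a and Hspa1b, the last a near-identical pair whose counts are uncertain, overlapped. Il1b, Ccl3, Ccl4 and Nr4a1 were lower in CD103+ DCs as well, and the part that taking tissue apart had in this was not tested.

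Without CD11b+ replicate 3, the library that differed in sex-linked genes, 9 cDC1 genes were higher and 20 cDC2 genes lower, and 13 class I genes, 21 maturation genes and 17 cholesterol genes were higher. The plot of gene lists shows each member.

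**Figure D4:**
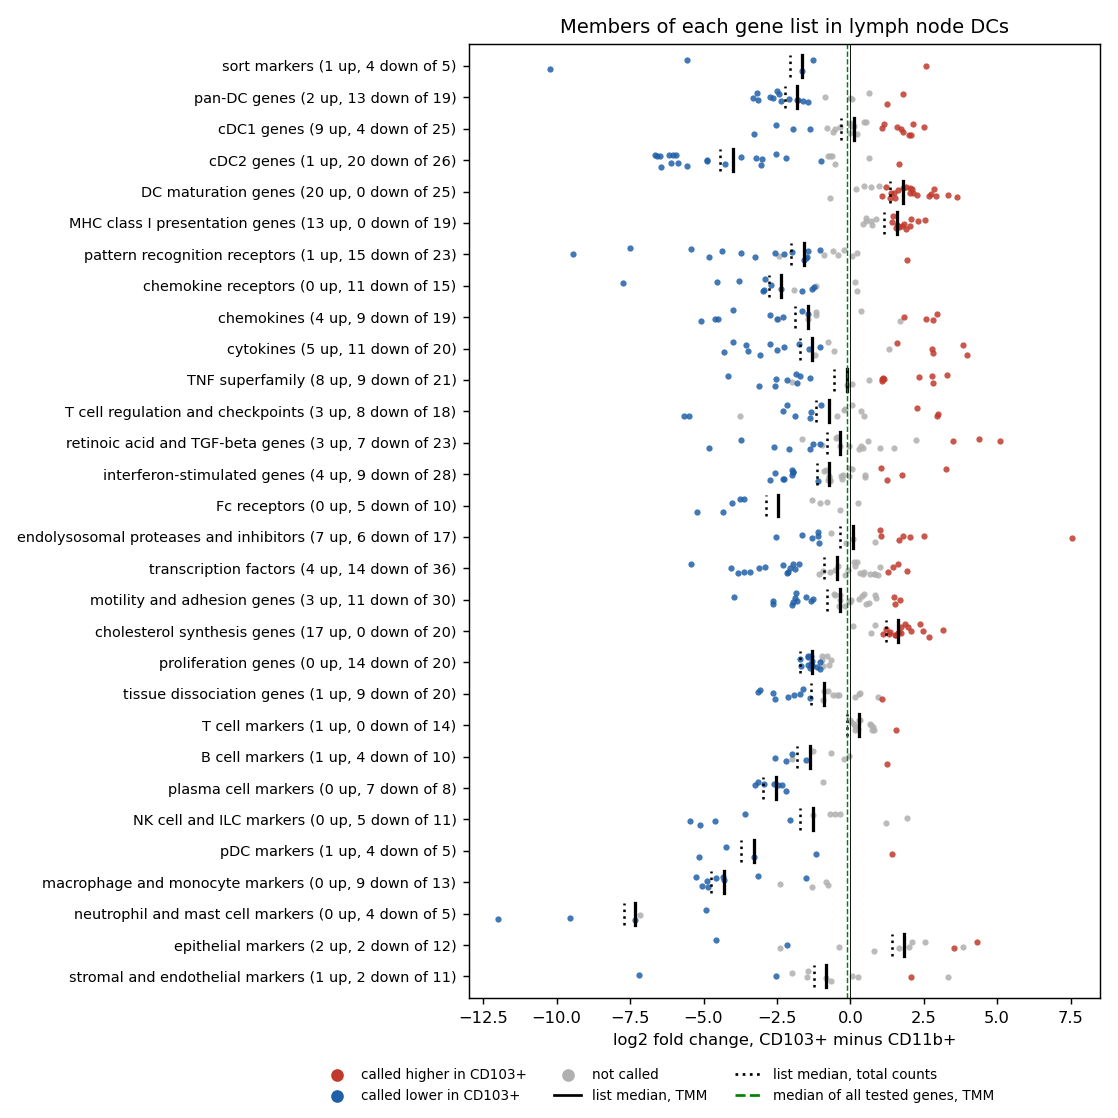
Log2 fold change (CD103+ minus CD11b+) of every tested member of 30 gene lists, 1 row a list, with called members in red or blue, solid bars for the list medians under TMM, dotted bars for those under total counts and the dashed line at the median of all tested genes (-0.13). Maturation (median 1.79), class I presentation (1.58) and cholesterol synthesis (1.63) lie to the right, and cDC2 genes (-4.01) and macrophage markers (-4.31) to the left.

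Among genes of at least 10 CPM, the 12 with the largest rises included several of extracellular matrix, membrane and signalling. Thbs4, a thrombospondin of the extracellular matrix, was at 60.7, 54.1 and 54.0 CPM in the CD103+ libraries and 0.0609, 0.130 and 0.466 CPM in the CD11b+ libraries (log2 fold change 8.00 ± 0.56 (SE), adjusted p = 1.7e-08). Laptm4b, a membrane protein of the lysosome, was at 1454, 1540.5 and 1673 CPM in the CD103+ libraries and 29.7, 43.0 and 41.1 CPM in the CD11b+ libraries (log2 fold change 5.36 ± 0.18 (SE), adjusted p = 2.2e-12). Bcl2l14, of the BCL2 family, was at 1822, 2152 and 1991 CPM in the CD103+ libraries and 38.4, 64.2 and 57.1 CPM in the CD11b+ libraries (log2 fold change 5.22 ± 0.25 (SE), adjusted p = 4.6e-11). In each case the CD11b+ libraries held a small part of the level in CD103+ DCs. Mab21l3 (61.2-fold), Fgfbp3, a carrier of fibroblast growth factors (55.9-fold), Cpne8, a copine (89.7-fold), and Arhgap8, a GTPase-activating protein (67.0-fold), had mean levels of 50.5 to 345 CPM in CD103+ DCs, and Eva1a, Spock1, Fbxo2 and Sh3gl3 were also among the 12. Among the most abundant transcripts, Tmem123, a surface mucin, was 4.25-fold higher (11489.8 ± 968 against 2706 ± 538 CPM), and Tmsb4x (thymosin beta 4) and Actb were 2.45-fold and 2.21-fold higher under TMM and within the fold limit under total counts.

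The 12 largest falls included receptors of myeloid cells and mast cell proteases. Sirpb1a, an activating relative of SIRP alpha, was at 0.581, 0.380 and 0.263 CPM in the CD103+ libraries and 180.4, 114 and 177 CPM in the CD11b+ libraries (log2 fold change -8.57 ± 0.44 (SE), adjusted p = 1.1e-10). Sirpb1b had 3 counts over the CD103+ libraries and 2397 over the CD11b+ libraries, a ratio of 602 (206 to 2.92e+03, 95% counting interval), and Sirpb1c was lower too. These 3 genes are near-identical, as are members of the Cyp4f family that includes Cyp4f37, so that their single counts are uncertain. Cd300ld and Cd300e, which sense lipids, and the lectin Clec4a3 were 268-fold, 154-fold and 206-fold lower, and Lpl (lipoprotein lipase) and Ptger3, a receptor for prostaglandin E2, 149-fold and 149-fold. Adgrl3, an adhesion receptor, had 2 counts in CD103+ and 1157 in CD11b+ DCs (ratio 436, 95% counting interval 120.0 to 3.6e+03). Cma1 had 0 counts in CD103+ DCs and was at least 441-fold higher in CD11b+ DCs, and Tpsb2, a mast cell tryptase, was at 39.7, 4.06 and 7.43 CPM there, with the higher value of both genes in CD11b+ replicate 1.

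Markers of other cells were found in both groups. Plasma cell genes were lower for 7 of 8 with a median log2 fold change of -2.53, and their summed level was 1443 to 2064 CPM in CD103+ and 8154 to 10824 CPM in CD11b+ libraries. Igha, the heavy chain of IgA, was at 591, 710.0 and 777 CPM in the CD103+ libraries and 4375, 3402 and 4866 CPM in the CD11b+ libraries (log2 fold change -2.6 ± 0.32 (SE), adjusted p = 3.0e-06), and Jchain, the joining chain, was 4.61-fold lower. Lyz2, the lysozyme of myeloid cells, was at 113, 99.1 and 119 CPM in the CD103+ libraries and 3744, 2246 and 3553 CPM in the CD11b+ libraries (log2 fold change -4.85 ± 0.30 (SE), adjusted p = 7.8e-10). The macrophage genes Adgre1 (F4/80), Apoe, C1qa, C1qb and C1qc were 19.9-fold to 38.6-fold lower, whereas Mertk, Mrc1 and Cd163 were at 0.340 to 4.17 CPM on average in either group and were not called, except Cd163, which was called lower under total counts. B cell markers were lower for 4 of 10 and higher for 1 (Ighd), against 15.6% and 10.2% of all tested genes. Markers of plasmacytoid DCs were lower for 4 of 5 and higher for 1 (Pacsin1). The calls of Ighd and Pacsin1 were lost when a library was left out, and Siglech was 36.1-fold lower.

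T cell markers did not separate the groups: 0 of 14 were lower and 1 higher, against 15.6% and 10.2% of all tested genes. The higher one was Cd247, whose call was lost when a library was left out. The summed level of T cell markers was 540.0 to 924 CPM in CD103+ and 413 to 804 CPM in CD11b+ libraries. Of 10 neutrophil and mast cell genes 5 passed the filter and 4 were lower, with a summed level of 0.844 to 0.954 CPM in CD103+ and 20.6 to 112 CPM in CD11b+ libraries. Of 12 epithelial markers 2 were higher and 2 lower, and of 11 stromal and endothelial markers 1 was higher and 2 lower, both near the shares over all tested genes (10.2% and 15.6%). The stromal marker that was higher lost its call whichever library was left out. Epithelial markers came to 17.6 to 26.9 CPM and 230 to 314 CPM, of which Lyz1, a close copy of Lyz2, was most in CD11b+ DCs (10.9 ± 2.49 against 259.7 ± 43.1 CPM), and stromal and endothelial markers came to 13.4 to 21.2 and 68.0 to 82.2 CPM. How far these cells or their RNA enter the differences above was not tested.

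**Figure D5:**
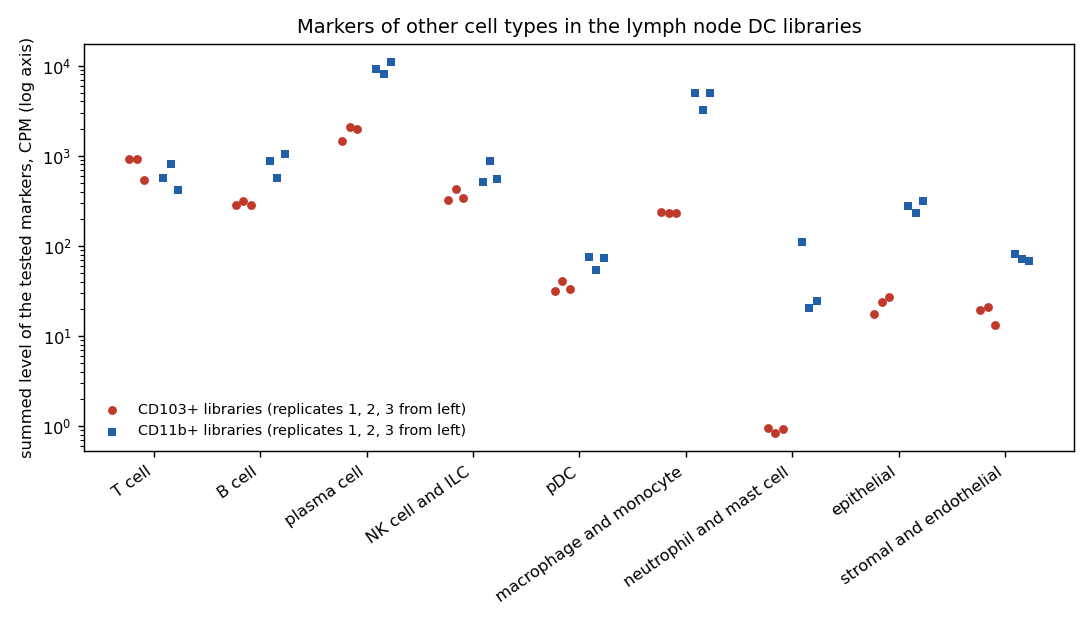
Summed level of the tested markers of 9 other cell types in each library, in CPM on a log axis, with circles for CD103+ and squares for CD11b+ libraries and replicates 1 to 3 from left to right. Macrophage and plasma cell markers are several times higher in every CD11b+ library (3240 to 5027 and 8154 to 10824 CPM), T cell markers overlap, and CD11b+ replicate 1 stands highest for neutrophil and mast cell markers at 112 CPM.

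The difference between CD103+ and CD11b+ DCs in the lamina propria was itself different from that in the nodes for 3154 of the 17074 genes (18.5%, test of the difference of differences). Among them, 20 of the 25 cDC1 genes had a lower log2 difference in the nodes, where it was smaller or turned, and 2 had a higher one. Sex-linked genes also divide the libraries of these subsets by tissue, since all 6 from the lamina propria had Ddx3y at 50.04 to 68.9 CPM, so that sex and tissue cannot be told apart there.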

How the data were processed

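RNA-seq was analysed for 6 libraries of lymph node DCs, 3 sorted as CD103+ and 3 as CD11b+, in fits that used all 18 libraries of the series. The authors deposited raw read counts per gene, without normalization, for 54232 genes, of which 54079 were matched by identifier to GENCODE vM21 (GRCm38) for symbol and position; 0 sample columns were left unused. The submitters' processing notes name FastQC 0.11.7, STAR 2.6 and GRCm38. For its own DC libraries the study describes SMART-seq amplification, unique alignments only and counting without regard to strand, so reads shared by near-identical or overlapping genes are lost or not separated.

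Counts were tested with edgeR 4.0.16 (R 4.3.3): TMM scaling, filterByExpr over the 6 groups, a quasi-likelihood model of the 6 group means, and the contrast CD103+ minus CD11b+ in lymph node. Calls needed a Benjamini-Hochberg adjusted p under 0.01 and a fold change over 2. Levels are CPM on TMM-scaled library sizes, per gene and not per length, given as mean ± SD of 3 libraries, and standard errors come from the F statistic. Replicates differed beyond sampling noise (chi-square per gene 16 to 50.5 over genes with at least 50 counts), so all were counted separately. Folds against a group with 0 counts use a floor of 3 counts over the group; these and the intervals cover counting error only. The steps were tested on simulated counts.

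Members of 30 gene lists (552 genes) were named, those called first, with the 12 largest rises and falls without overlap at 10 CPM or more and the 6 most abundant called genes in each direction. The lists and this rule were chosen with earlier results of these data known. A few genes are not reported here. Alternatives were other scalings, filters and thresholds, DESeq2 1.42.0, the 6 libraries alone, the replicate number as a block, X and Y genes left out, and each library left out. Promoter sequences were taken from RefSeq for GRCm38.p6.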

Additional observations from a re-analysis of the deposited data

Results flagged for a closer look

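The CD103+ against CD11b+ difference differed between lymph node and lamina propria by the test of the difference itself (edgeR) for 3154 genes, of which 1583 had a higher and 1571 a lower log2 difference in lymph node. The count was 2923 to 3137 when each lymph node library was left out in turn. Of the genes called in both tissues, 1313 had the same direction and 170 the opposite one. Among the members of the gene lists and the genes named by rank, 22 were called in opposite directions in the 2 tissues, with the difference itself called, of which 19 are given here. Among them, 4 were cDC1 genes. Tlr3 was lower in CD103+ DCs of the nodes (log2 -1.36) and higher in those of the lamina propria (log2 5.71), a difference of -7.07. Sept3 had -2.53 and 3.14, a difference of -5.67, and Wdfy4 -1.95 and 1.49, a difference of -3.44. Itgb5 went the other way, with 1.15 and -3.44, a difference of 4.6. Of the maturation genes, 5 were higher in CD103+ DCs of the nodes and lower in those of the lamina propria, given as log2 in the nodes, log2 in the lamina propria and their difference: Relb (1.21, -1.14 and 2.35), Socs2 (1.88, -1.23 and 3.11), Samsn1 (2.10, -1.84 and 3.94), Anxa3 (2.27, -1.58 and 3.85) and Stat4 (1.79, -3.24 and 5.03). In the same way and on the same scale, higher in the nodes and lower in the lamina propria were F11r (1.69, -3.95 and 5.64), Ido2 (2.99, -4.43 and 7.42), Lgmn (2.5, -2.21 and 4.71), Pvr (2.94, -1.13 and 4.07), Tnfsf9 (1.09, -2.75 and 3.84), Lamp1 (1.8, -1.81 and 3.60) and Tnfrsf1b (1.12, -1.34 and 2.46). Lower in the nodes and higher in the lamina propria were Cxcr3 (-1.23, 5.36 and -6.59), Lif (-2.5, 3.54 and -6.04) and Havcr2 (-1.87, 1.12 and -2.99). The lymph node call was lost without CD103+ replicate 1 for Itgb5, without CD11b+ replicate 1 for Tnfrsf1b, and in most such fits for Tnfsf9. Relb, Tnfsf9 and Tnfrsf1b did not pass the fold limit in the nodes under total counts, where Itgb5 was not called either. Since all 6 lamina propria libraries of these subsets carry Y-linked transcripts and 5 of the 6 lymph node libraries had at most 0.351 CPM of Ddx3y, the part of sex was not tested.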

How the results depend on the processing

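The number of changed genes was 3658 to 5246 over all alternatives and 3974 to 4195 when each library was left out in turn (1496 to 1643 higher and 2391 to 2607 lower). Only total counts moved the split by direction by more than 1.5 times, to 1020 higher and 4223 lower. DESeq2 called 4595 genes, the fit of the 6 libraries alone 4333, and the counts without X and Y genes were 4297. Of 354 single genes that were called, 38 lost their call when some library was left out and 0 turned. Of 390 list medians, 4 changed sign by a rule that also required a value at or above the list's spread between libraries. Under total counts the cDC1 genes were at -0.32 and the endolysosomal genes at -0.35. The epithelial markers were at 1.84 in the fit of all 18 libraries, with 12 members tested. With 7 members tested, they were at -0.35 in the fit of the 6 libraries alone and at -0.44 with the replicate block. Sign changes within the spread were not counted, such as that of the T cell markers, at 0.31 and, under total counts, -0.13. The endolysosomal genes were also at -0.05 with the filter of at least 100 counts in at least 3 libraries. The deviations of same-numbered libraries correlated weakly, at 0.0292, 0.063 and 0.0354, although each correlated best with its own number. Correlations this small over all tested genes cannot tell whether the replicate numbers pair the libraries. With the replicate block 4198 genes were changed (1756 higher, 2442 lower), 332 list members were called against 328, and the difference between tissues was called for 3168 genes. Cyp26b1 and Il12a had low counts in both groups, which limits the precision of their values.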
